A study of Mus musculus with 8 samples.

Results

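The comparison described here sets long-term haematopoietic stem cells (HSC) against the whole stem and progenitor gate they belong to (KSL), both taken from the marrow of leukemic mice. KSL cells lack markers of mature blood lineages and carry Kit and Sca-1 on their surface, and HSC are the CD150+ CD48- fraction of KSL cells. Of the 8 Affymetrix mouse expression arrays of the study, 4 were from leukemic mice and were chosen by their disease state label: 2 of HSC and 2 of KSL. The other 4 arrays, 2 of HSC and 2 of KSL from normal mice, served as background. The comparison covered 18193 genes with a single gene symbol, and each difference is the mean log2 level in HSC minus that in KSL.

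A KSL sort holds multipotent, lymphoid-primed and early myeloid progenitors together with the few stem cells, so the comparison is between a rare fraction and a mixture that contains it. Stem cells in adult marrow divide rarely, depend on transcription factors such as Mecom, Hlf, Meis1 and Gata2, and share part of the gene programme of megakaryocytes, the cells that shed platelets. Progenitors divide more and switch on genes of the granules and receptors of the lineages they will form. In such bulk samples, fewer cells of a type and less RNA per cell cannot be told apart.

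The leukemic mice were chimeras: CD45.1+ hosts received CD45.2+ marrow that carried the BCR-ABL and SCL-tTA transgenes, mixed in equal number with CD45.1+ marrow. BCR-ABL is the oncogenic kinase behind chronic myeloid leukaemia, and SCL-tTA turns it on in primitive blood cells when tetracycline is taken away. The normal mice were made in the same way but without BCR-ABL. The titles of both KSL samples of leukemic mice carry the wording of a normal and of a leukemic mouse run together, and their group here rests on the disease state label, which says leukemic for both. All 4 groups were sorted as CD45.1+ cells and so lack the transgene, and the series' design text gives 4 weeks between the withdrawal of tetracycline and the sort. HSC and KSL compared here thus both came from mice labelled leukemic, but the labels do not say whether they came from the same animals. The ages and strains of the mice, and whether replicates came from separate animals, are not stated in the sources used here, so p-values measure the spread between these samples.

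The HSC arrays varied more between replicates than the KSL arrays. The median standard deviation of a gene between replicate arrays was 0.208 log2 units for HSC and 0.0940 for KSL arrays of leukemic mice, and 0.196 for HSC and 0.114 for KSL arrays of normal mice. Control probe sets also differed: the Gapdh probe sets at the 3′ end exceeded those at the 5′ end by 1.19 and 1.03 log2 units on HSC arrays, against 0.729 and 0.753 on KSL arrays of leukemic mice. For Tfrc this difference was -0.355 and -0.750 in HSC, against -1.65 and -1.68 in KSL, and the BioB spike-in stood at 10.2 and 10.1 in HSC, against 9.33 and 9.75 in KSL. These measures of RNA quality and labelling moved with the comparison, and their part in the results was not tested. On replicate 1 of both normal groups, the female-specific RNA Xist had levels of 5.79 (HSC) and 3.67 (KSL), against 11.63 to 11.99 on the other 6 arrays. The 4 arrays of leukemic mice were alike in this respect.

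Of 10 markers of long-term HSC, 9 were measured and in all 9 both HSC arrays lay above both KSL arrays of leukemic mice. Procr, the endothelial protein C receptor, had log2 levels of 8.63 and 8.78 in HSC, against 6.29 and 6.39 in KSL. Mecom, a transcription factor that stem cells need for self-renewal, had 10.1 and 9.55 in HSC, against 6.89 and 6.15 in KSL. All 6 measured markers of multipotent and lymphoid-primed progenitors and all 6 markers of myeloid progenitors lay lower on both HSC arrays. Among all 18193 genes, the arrays were separated in this way for 5123 higher and 4222 lower. At an adjusted p under 0.05 (limma), 4 of the 9 HSC markers passed, all higher. So did 2 of the 6 multipotent and lymphoid-primed and 3 of the 6 myeloid markers, all lower. Among all genes, 3.13% passed as higher and 2.74% as lower. Slamf1 and Cd48 are counted among these markers but also define the HSC gate, so their values restate the sort. Slamf1, which encodes CD150, differed by 2.73 ± 0.51 (SE of the fit, n = 2 arrays each, adjusted p = 0.0581), and Cd48 differed by -3.11 ± 0.82, with HSC arrays at 7.96 and 6.39 and KSL arrays at 10.4 and 10.2 (adjusted p = 0.113). Ptprc, the gene of CD45, differed by -0.15 ± 0.21, but another of its probe sets differed by 0.955. Kit differed by 1.02 ± 0.37 without passing (limma, adjusted p = 0.199), and its other probe set differed by 0.756. Ly6a, the gene of Sca-1, was not analysed here. The lineage antibodies of the sort are not named in the sources used here. Of genes whose proteins such antibodies often target, Cd8a differed by 0.98, Itgam by 0.47 and Cd4 by -0.58 without passing. The other probe sets of Cd8a differed by only 0.00 to 0.054. The Itgam arrays overlapped, at 7.13 and 4.57 in HSC and 5.59 and 5.17 in KSL. Cd3e, described with the T cell genes, fell by 1.97 on the log2 scale.

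Across the 18193 genes, 569 were higher and 498 were lower in HSC than in KSL of leukemic mice at an adjusted p under 0.05 (limma with Benjamini-Hochberg adjustment), which is 3.13% and 2.74% of the genes tested. At an unadjusted p under 0.05 the counts were 2316 and 1870. Of the 569 higher genes, 366 differed by at least 2-fold and 40 by at least 8-fold. Among the 498 lower genes, 322 differed by at least 2-fold and 43 by at least 8-fold. The largest differences ran downward, with 4 genes higher and 18 lower by at least 16-fold. In all 1067 called genes the HSC arrays and the KSL arrays of leukemic mice did not overlap, which also held for 5123 genes higher and 4222 lower among all genes. The median difference over all genes was 0.0094.

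These counts depend on which arrays are fitted. The fit estimates 1 spread per gene from all 8 arrays. With 1 HSC array left out, that spread draws more on the KSL arrays, which varied less, so a larger count there does not mean firmer calls. When fitted on the 4 arrays of leukemic mice alone, 48 genes were higher and 46 lower. Without KSL leukemic replicate 1, 0 genes were called in either direction (limma, adjusted p under 0.05), and without KSL leukemic replicate 2, 1 higher and 8 lower. With 1 KSL array of normal mice left out, whichever it was, the counts were 223 and 179. Without HSC leukemic replicate 1 they were 761 and 555, and without HSC leukemic replicate 2 they were 665 and 462. The same holds for the counts of called members given for each gene group: without KSL leukemic replicate 1 no group kept a called member, and without KSL leukemic replicate 2 only the megakaryocyte and platelet group kept 1. With only the 4 leukemic arrays in the fit, 3 long-term HSC genes were higher (18 with all 8 arrays), 4 megakaryocyte and platelet genes were higher (8 with all 8 arrays), 2 mast cell, basophil and eosinophil genes were lower (4 with all 8 arrays) and 0 granulocyte-monocyte progenitor genes were lower (10 with all 8 arrays). No difference of a called and named gene changed sign in any of these fits.

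**Figure D1:**
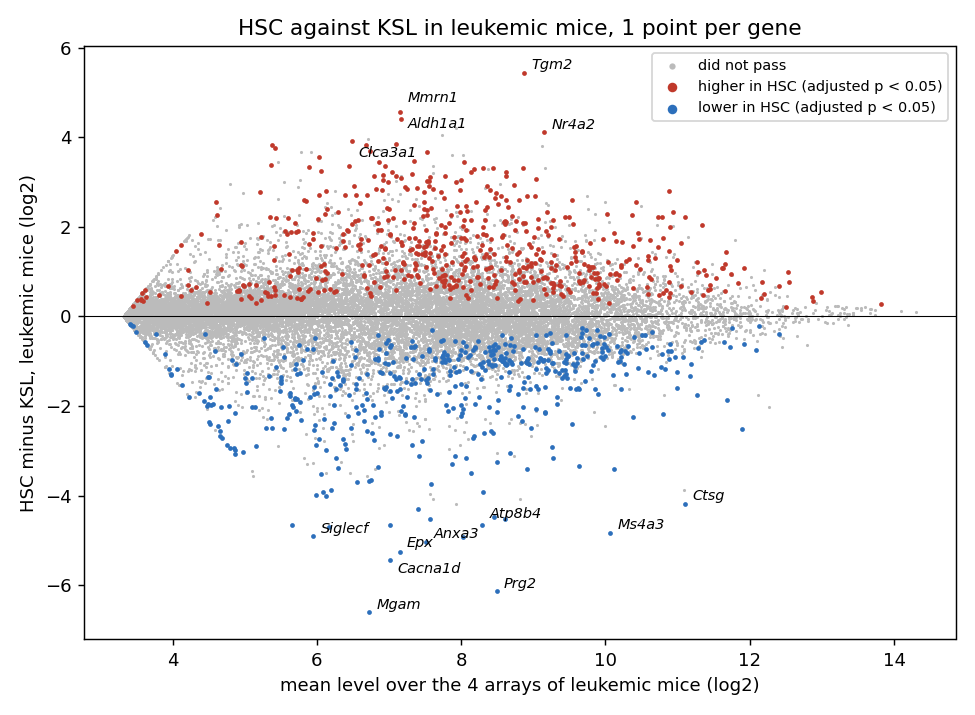
Each point is 1 of 18193 genes, with its mean log2 level over the 4 arrays of leukemic mice on the x axis and its HSC minus KSL difference (log2) on the y axis. Red points are the 569 genes called higher in HSC and blue points the 498 called lower, with Tgm2 at the top and Mgam at the bottom.

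Tgm2, the calcium-dependent cross-linking enzyme transglutaminase 2, had the largest rise. It stood at 11.6 and 11.6 on the HSC arrays, against 5.82 and 6.49 on the KSL arrays of leukemic mice, a difference of 5.43 ± 0.53 (adjusted p = 0.0168). Mmrn1, which encodes the factor V-binding platelet protein multimerin, stood at 9.40 and 9.47 in HSC, against 4.85 and 4.90 in KSL (4.55 ± 0.08, adjusted p = 0.00119). The replicates of Mmrn1 differed by less than 0.1 log2 units in either population, and it was still called when only the 4 leukemic arrays were fitted. Aldh1a1, a retinaldehyde dehydrogenase, had 9.44 and 9.28 in HSC, against 5.00 and 4.92 in KSL (4.40 ± 0.21, adjusted p = 0.00643). Nr4a2, a nuclear receptor that is also an immediate-early gene, had 11.3 and 11.1 in HSC, against 6.88 and 7.31 in KSL (4.11 ± 0.29, adjusted p = 0.0106). All these arrays were separated by at least 3 log2 units between populations.

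Other genes among the 15 with the largest rise encode surface, matrix and signalling proteins. Clca3a1, a chloride channel regulator, rose by 3.92 ± 0.41, and Esam, an adhesion molecule of endothelium and stem cells, by 3.85 ± 0.59. Esam was uneven between HSC replicates, at 9.92 and 8.12, while KSL arrays were at 5.22 and 5.12. Clec1a, a C-type lectin, rose by 3.83, Bgn, which encodes the matrix proteoglycan biglycan, by 3.69, and Tgfbr3, the TGF-beta co-receptor betaglycan, by 3.44. Trpc6, a cation channel, rose by 3.55, and Gucy1a1, a subunit of the nitric oxide receptor guanylate cyclase, by 3.44. The LIM-domain gene Fhl1 rose by 3.82, but its second probe set was at the lowest value of the table on these arrays. Rhof, a small GTPase of filopodia, rose by 3.67, and Cavin2, a coat protein of caveolae, by 3.46.

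Genes of long-term HSC identity were the group with most called members. Of 28 measured members, 18 were called higher (64.3%, against 3.13% of all genes) and 0 lower, and all 28 had a positive difference, with a median of 2.48. These members were put on the list because they are known to mark stem cells. Prdm16, a zinc finger regulator of stem cell maintenance, had 8.71 and 8.52 in HSC, against 5.51 and 5.01 in KSL (3.35 ± 0.28, adjusted p = 0.0126). Pdzk1ip1, a membrane protein used as a stem cell reporter, rose by 3.30 ± 0.39 and Mecom by 3.30 ± 0.35. Mllt3, a chromatin reader of the super elongation complex, rose by 2.94 ± 0.23, and Gata2 by 2.56 ± 0.21. Adgrg1, an adhesion G-protein coupled receptor, had 12.3 and 12.1 in HSC, against 10.03 and 9.95 in KSL (2.23 ± 0.09, adjusted p = 0.00525). Meis1, a cofactor of Hox proteins, rose by 2.09 ± 0.16. The smallest rise among the called members was that of Ifitm3, an interferon-induced membrane protein, at 0.78 ± 0.09. Members that did not pass included Tek, the angiopoietin receptor (2.80 ± 0.59, adjusted p = 0.0725), and Abcg2, an efflux pump (1.01).

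Mycn, a Myc family member, was on this list and had 9.85 and 9.99 in HSC, against 7.30 and 7.36 in KSL (2.59 ± 0.10, adjusted p = 0.00525). Its other probe sets differed by -0.42 and 3.66, so the probe sets of Mycn disagreed. Myc itself had 11.9 and 12.1 in HSC, against 12.1 and 11.9 in KSL, and these arrays overlapped.

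**Figure D2:**
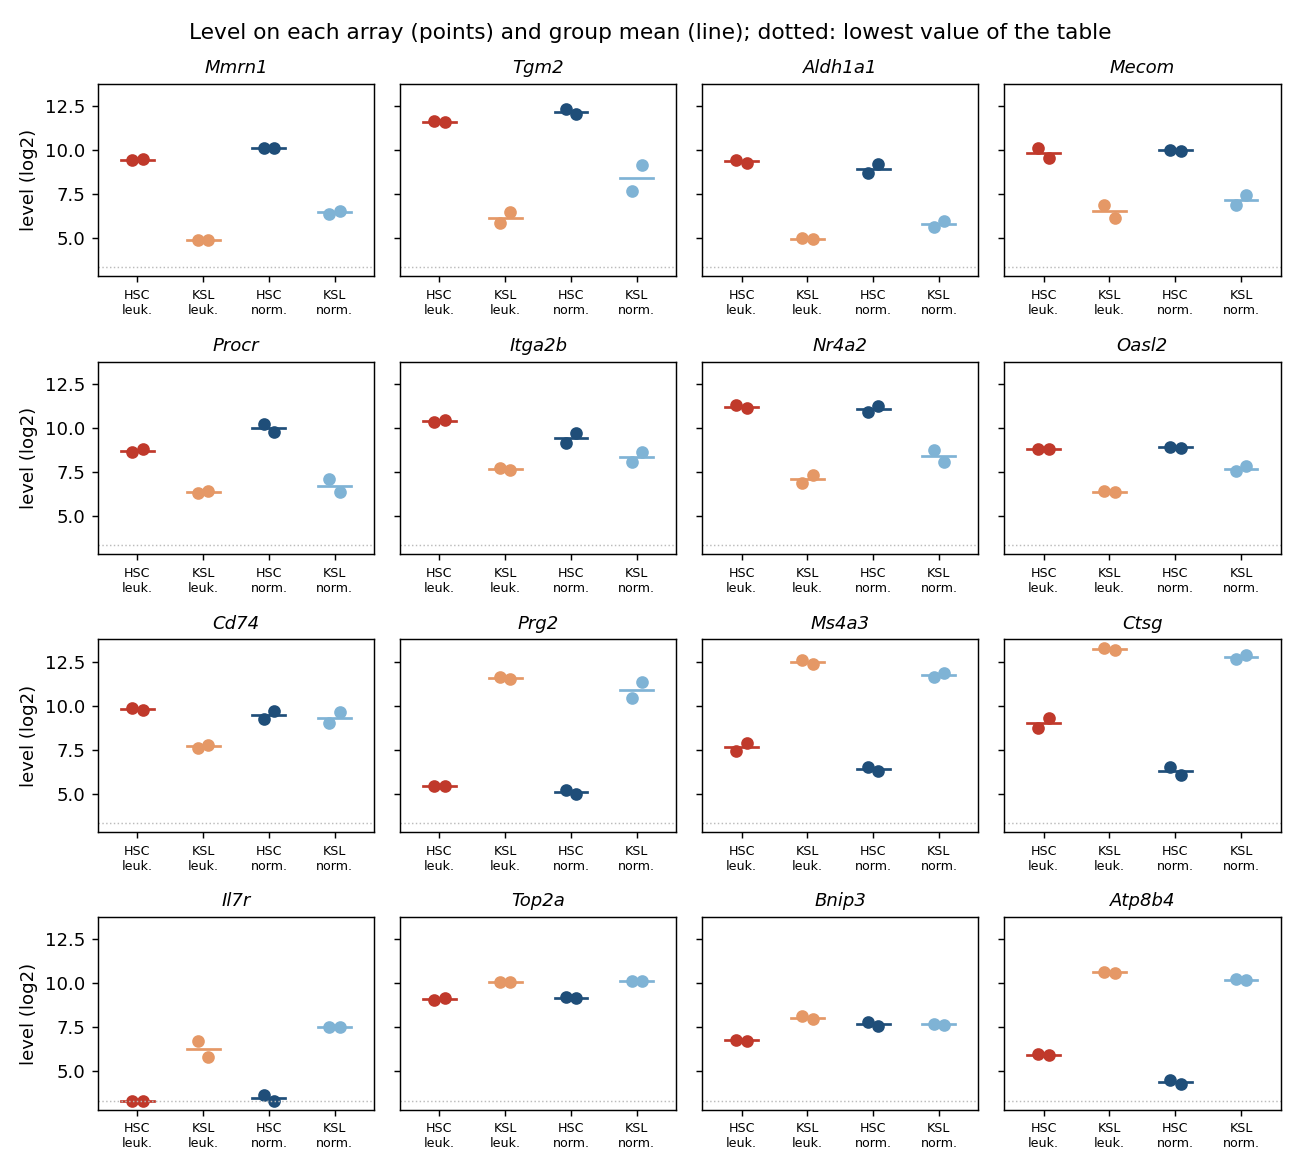
Log2 levels of 16 genes on each of the 8 arrays, with points for arrays and a line for the mean of the 2 arrays of a group, in the order HSC leukemic, KSL leukemic, HSC normal, KSL normal. The dotted line marks the lowest value of the table, and Il7r lay on it on both HSC arrays of leukemic mice.

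Genes of the Hox clusters encode homeodomain factors that set identity along the body axis and in blood cells. Of 19 measured, 5 were called higher (26.3%, against 3.13% of all genes) and 0 lower (median 0.63). Hoxb6 rose by 3.75 ± 0.64, with HSC arrays at 6.39 and 8.18 and KSL arrays at 3.32 and 3.76. Hoxb5, a marker of long-term HSC, rose by 2.52 ± 0.35, Hoxa5 by 2.46 ± 0.40, Hoxa10 by 2.40 ± 0.37 and Hoxa3 by 1.92 ± 0.28. Hoxa3 is uncertain because 2 of its 3 other probe sets had a negative difference, the lowest at -0.70, and the other probe set of Hoxa10 was at the lowest value of the table. Without HSC leukemic replicate 1 the list's median was 0.78, and without HSC leukemic replicate 2 it was 0.47. Of 18 imprinted genes, which are expressed from 1 parental allele, 1 was called higher (5.56%, against 3.13% of all genes): Grb10, an adaptor that restrains insulin signalling, had 9.09 and 9.27 in HSC, against 6.59 and 6.83 in KSL (2.47 ± 0.11, adjusted p = 0.00591).

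Of 18 measured genes of megakaryocytes and platelets, 8 were called higher in HSC of leukemic mice (44.4%, against 3.13% of all genes) and 0 lower. The median was 2.69. The mean level over the list was 9.09 and 9.13 in HSC, against 6.67 and 6.77 in KSL. Itga2b, the alpha chain of the fibrinogen receptor, had 10.3 and 10.4 in HSC, against 7.72 and 7.62 in KSL (2.70 ± 0.26, adjusted p = 0.0168). Pf4, platelet factor 4, had 12.2 and 12.4 in HSC, against 9.22 and 9.73 in KSL (2.81 ± 0.42, adjusted p = 0.0366). Neither gene's arrays overlapped. Rab27b, a GTPase of platelet granule release, rose by 3.13 ± 0.30, although 1 of its 3 other probe sets differed by -0.39, and Gp9, a subunit of the von Willebrand factor receptor, rose by 1.94 ± 0.23. Gp1bb, another subunit of that receptor, differed by 3.81 ± 0.68 without passing (adjusted p = 0.0523), and Gp6, the collagen receptor of platelets, was at the lowest value of the table on all 8 arrays. Of the list's members, Itgb3 and Vwf are also on the long-term HSC list, and the part of megakaryocytes or platelets carried along in the sort was not tested.

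Of 16 genes of erythroid commitment, 4 were called higher (25%, against 3.13% of all genes) and 0 lower (median 0.95). Zfpm1, the GATA1 partner FOG1, had 10.1 and 10.3 in HSC, against 7.13 and 6.99 in KSL (3.13 ± 0.29, adjusted p = 0.0154). The erythropoietin receptor gene Epor rose by 2.70 ± 0.29, carbonic anhydrase 2 (Car2) by 2.21 ± 0.23 and the transcription factor gene Tal1 by 1.73 ± 0.26. Late erythroid genes did not pass: Hba-a1, an alpha globin gene, had 5.03 and 4.61 in HSC, against 4.82 and 4.57 in KSL. The list's median was 1.35 without HSC leukemic replicate 1 and 0.34 without HSC leukemic replicate 2.

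The 15 largest falls included genes of eosinophil granules and of early granulocytes. Mgam, which encodes the sugar-cleaving enzyme maltase-glucoamylase, had 3.32 and 3.52 in HSC, against 10.1 and 9.93 in KSL (-6.61 ± 0.43, adjusted p = 0.0096), with 1 HSC array at the lowest value of the table. Prg2, the major basic protein of eosinophil granules, had 5.41 and 5.44 in HSC, against 11.6 and 11.5 in KSL (-6.14 ± 0.32, adjusted p = 0.00759). Epx, eosinophil peroxidase, had 4.47 and 4.56 in HSC, against 9.57 and 9.99 in KSL (-5.27 ± 0.52, adjusted p = 0.0169). The levels of these 3 genes lay more than 5 log2 units apart between the populations. Siglecf, a surface lectin of eosinophils, fell by 4.91 on the log2 scale and Prg3, a second granule protein of eosinophils, by 4.70.

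Of the 10 measured genes of mast cells, basophils and eosinophils, 4 were called lower (40%, against 2.74% of all genes) and 0 higher, all 10 had a negative difference, and the median was -3.77. The list's mean level was 4.83 and 5.69 in HSC, against 8.68 and 8.68 in KSL. Ms4a2, the beta chain of the IgE receptor, had 3.80 and 4.42 in HSC, against 8.17 and 8.09 in KSL (-4.02 ± 0.27, adjusted p = 0.0102). Cma1, mast cell chymase, had 5.62 and 6.14 in HSC, against 8.62 and 8.89 in KSL (-2.88 ± 0.23, adjusted p = 0.012). Cpa3, a carboxypeptidase of mast cell granules, differed by -4.08 ± 0.96 without passing, with HSC arrays at 4.13 and 7.01. Hdc, histidine decarboxylase, had HSC arrays at 4.94 and 6.74, and Mcpt8, a basophil protease, at 5.17 and 7.58, so that HSC leukemic replicate 2 was the higher HSC array for all 3. The median over the list was -2.85 without HSC leukemic replicate 1 and -4.53 without HSC leukemic replicate 2.

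Genes of granulocyte-monocyte progenitors included 10 called lower of 22 measured (45.5%, against 2.74% of all genes) and 0 higher, with a median of -2.002. Ctsg, the azurophil granule protease cathepsin G, had 8.74 and 9.28 in HSC, against 13.3 and 13.1 in KSL (-4.19 ± 0.25, adjusted p = 0.00839). Ms4a3, a tetraspan protein of early granulocytes, had 7.42 and 7.88 in HSC, against 12.6 and 12.4 in KSL (-4.83 ± 0.20, adjusted p = 0.0053). Prtn3, proteinase 3, fell by 2.52 on the log2 scale, Fcgr3, a receptor for IgG, by 3.93, and Ly86, a partner of a Toll-like receptor homologue, by 3.30. Of the transcription factor genes of the lineage, Irf8 fell by 1.99 and Spi1, the gene of PU.1, by 1.80, and Cebpa differed by -2.28 without passing. Mpo, myeloperoxidase, was at 10.6 and 11.9 in HSC, against 13.2 and 13.3 in KSL (-2.01 ± 0.73, adjusted p = 0.202), and its HSC replicates were far apart. Elane, neutrophil elastase, differed by -3.88 ± 0.77 (adjusted p = 0.0649). Csf3r, the G-CSF receptor gene, was the only measured member with a positive difference, at 0.31.

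Several of the other lower genes are not on a lineage list. Cacna1d, a calcium channel gene, fell by 5.45 on the log2 scale, but its other probe set differed by 0.19 and the probe sets disagreed. Anxa3, an annexin, had 4.88 and 5.12 in HSC, against 10.2 and 9.88 in KSL (-5.03 ± 0.17, adjusted p = 0.00468). Atp8b4, a phospholipid flippase gene, had 5.98 and 5.94 in HSC, against 10.6 and 10.6 in KSL (-4.67 ± 0.09, adjusted p = 0.00119). Both were still called when only the 4 leukemic arrays were fitted. Chdh, choline dehydrogenase, fell by 4.92, Prom1, which encodes CD133, by 4.66, Rab44, a GTPase gene, by 4.53, Dmkn, which encodes dermokine, by 4.51 and Chst13, a chondroitin sulfotransferase gene, by 4.31. Sgms2, sphingomyelin synthase 2, was at the lowest value of the table on both HSC arrays, against 7.99 and 7.96 in KSL, so that it was at least 25.2-fold lower in HSC (adjusted p = 0.00643).

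Genes of multipotent progenitors and of lymphoid priming moved both ways. Of 19 measured members, 2 were called higher (10.5%, against 3.13% of all genes) and 2 lower (10.5%, against 2.74%), with a median of -0.03. Il7r, the interleukin-7 receptor of lymphoid progenitors, was at the lowest value on both HSC arrays, against 6.72 and 5.81 in KSL, and so at least 7.71-fold lower in HSC (adjusted p = 0.0209). Satb1, a chromatin organiser of lymphoid genes, had 6.93 and 7.07 in HSC, against 7.72 and 7.64 in KSL (-0.68 ± 0.07), and its other probe sets differed by -4.26 to -2.21. Bcl11a, a zinc finger repressor also expressed in stem cells, rose by 1.85 ± 0.19, and Il12a, a subunit of interleukin-12, by 0.61 ± 0.06. The early lymphoid markers Flt3 and Dntt did not pass. Flt3, a cytokine receptor of multipotent progenitors, had 8.63 and 6.98 in HSC, against 8.78 and 8.88 in KSL, and Dntt, the lymphoid DNA polymerase TdT, had 5.78 and 6.30 in HSC, against 8.13 and 8.35 in KSL.

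Markers of other mature cells were also counted, since a sort can carry them along. Of 14 genes of T and NK cells, 3 were called lower (21.4%, against 2.74% of all genes) and 0 higher. Gzmb (granzyme B) fell by 2.75 on the log2 scale, Nkg7 (a cytotoxic granule membrane protein) by 2.18 and Cd3e (a chain of the T cell receptor complex) by 1.97. The mean level of that list was 5.45 and 5.63 in HSC, against 6.20 and 6.19 in KSL. Of 13 B lineage genes 0 were called, and 0 of 14 genes of stromal and endothelial cells, against 3.13% higher and 2.74% lower among all genes. The 2 with the smallest p among stromal and endothelial genes were Emcn (endomucin, 1.99 ± 0.41, adjusted p = 0.0698) and Cxcl12 (a niche chemokine, 2.45 ± 0.53, adjusted p = 0.0783). Cxcl12 was uneven between HSC replicates, at 8.01 and 6.82. Of 14 macrophage genes, 1 was called higher and 1 lower (7.14% each, against 3.13% and 2.74% of all genes). Hmox1 (haem oxygenase 1) rose by 2.15 ± 0.25, while Adgre1 (a surface antigen of macrophages) was at the lowest value on both HSC arrays and at least 2.46-fold lower (adjusted p = 0.0272).

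The list of mature neutrophils and monocytes had 1 called member of 17 (5.88% lower, against 2.74% of all genes). This was Pglyrp1, an antibacterial granule protein, which fell by 2.92 on the log2 scale. The list's median difference was 0.47, and -0.25 without HSC leukemic replicate 1. The list's mean level was 8.25 and 7.58 in HSC, against 7.95 and 7.66 in KSL. Camp, a cathelicidin of neutrophil granules, had 10.3 and 10.4 in HSC, against 8.37 and 8.24 in KSL, and S100a8, an abundant neutrophil protein, had 13.1 and 12.3 in HSC, against 12.1 and 11.3 in KSL. Neither passed, with adjusted p-values of 0.596 and 0.736 (limma). The arrays of normal mice enter the same estimate of spread, and for Camp they were at 10.1 and 5.59 in HSC and at 8.88 and 5.64 in KSL. The part of mature neutrophil RNA in the HSC arrays was not tested.

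**Figure D3:**
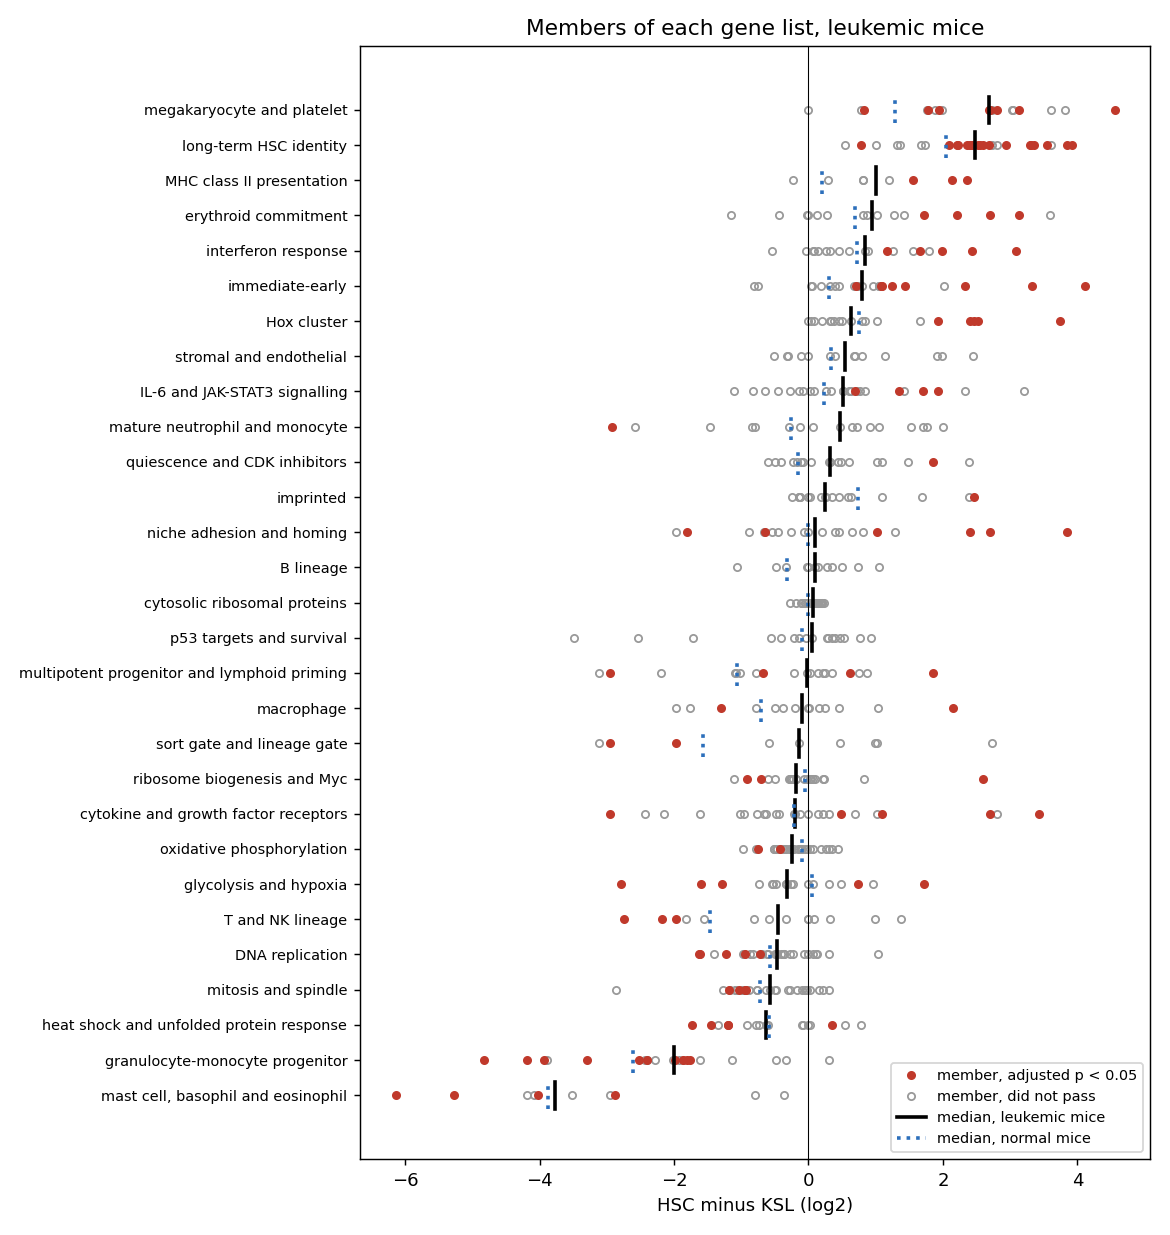
HSC minus KSL differences (log2, x axis) of the measured members of each gene list in leukemic mice, 1 row per list, ordered by median. Filled red points passed at an adjusted p under 0.05, open points did not, black bars mark the median in leukemic mice and dotted blue bars the median in normal mice. Megakaryocyte and long-term HSC genes lie at the top, and mast cell, basophil and eosinophil genes at the bottom.

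Every member of the mitosis and DNA replication lists that passed was lower in HSC than in KSL of leukemic mice. Of 31 measured genes of mitosis and the spindle, 4 were called lower (12.9%, against 2.74% of all genes) and 0 higher. Of the 31, 27 had a negative difference, and the median was -0.57. Top2a, which untangles DNA before chromosomes separate, had 9.08 and 9.20 in HSC, against 10.1 and 10.1 in KSL (-0.93 ± 0.05, adjusted p = 0.00797). 1 of its 2 other probe sets differed by 0.25. Bub1, a kinase of the spindle checkpoint, fell by 1.18, Ttk, which encodes the checkpoint kinase MPS1, by 1.03, and Birc5, which encodes survivin, by 0.94 on the log2 scale. The median over the list was -0.79 without HSC leukemic replicate 1 and -0.43 without HSC leukemic replicate 2. Mki67, the proliferation antigen Ki-67, had 11.2 and 11.6 in HSC, against 11.5 and 11.7 in KSL, and its arrays overlapped.

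The promoters of the 4 called mitosis genes are shown because many cell cycle genes carry shared motifs close to their start. Each sequence runs 5′ to 3′ on the gene's strand from 250 bases before to 50 bases after the start, from RefSeq on GRCm38.p6. Capitals mark CCAAT (or ATTGG on the other strand), TTTGAA (or TTCAAA), known as the cell cycle homology region, and the E2F words TTTGGCGC and TTTCCCGC on either strand. The Top2a window is chr11:99024140-99024439 (minus strand), that of Ttk chr9:83834439-83834738 (plus strand), that of Bub1 chr2:127831810-127832109 (minus strand) and that of Birc5 chr11:117848987-117849286 (plus strand).
Top2a: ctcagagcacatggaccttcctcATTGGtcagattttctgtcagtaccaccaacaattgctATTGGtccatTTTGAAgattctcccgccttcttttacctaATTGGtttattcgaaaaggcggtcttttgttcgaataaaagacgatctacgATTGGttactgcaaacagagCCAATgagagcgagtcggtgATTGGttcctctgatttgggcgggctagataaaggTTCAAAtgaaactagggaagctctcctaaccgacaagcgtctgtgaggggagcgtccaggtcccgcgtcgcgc
Ttk: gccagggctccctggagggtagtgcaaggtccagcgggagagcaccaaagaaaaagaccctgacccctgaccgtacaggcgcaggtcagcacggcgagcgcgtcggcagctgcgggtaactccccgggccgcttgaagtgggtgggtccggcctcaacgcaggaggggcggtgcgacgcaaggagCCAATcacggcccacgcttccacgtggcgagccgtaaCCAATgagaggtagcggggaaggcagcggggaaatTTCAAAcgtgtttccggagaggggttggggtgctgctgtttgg
Bub1: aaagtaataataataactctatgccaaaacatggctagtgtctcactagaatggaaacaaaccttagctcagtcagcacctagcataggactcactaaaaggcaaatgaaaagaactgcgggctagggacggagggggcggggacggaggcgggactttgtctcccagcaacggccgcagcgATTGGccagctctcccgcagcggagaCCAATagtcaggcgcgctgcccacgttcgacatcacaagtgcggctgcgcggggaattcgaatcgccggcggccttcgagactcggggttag
Birc5: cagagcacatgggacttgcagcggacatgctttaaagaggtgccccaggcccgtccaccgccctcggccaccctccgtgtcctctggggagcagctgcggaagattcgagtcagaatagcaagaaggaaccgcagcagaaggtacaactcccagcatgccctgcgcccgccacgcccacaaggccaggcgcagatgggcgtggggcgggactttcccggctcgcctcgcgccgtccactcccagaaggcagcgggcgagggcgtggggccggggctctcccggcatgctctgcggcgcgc
The Top2a window held 6 CCAAT words and 2 TTTGAA words, the Ttk window 2 and 1, the Bub1 window 2 and 0, and the Birc5 window 0 of either. Of 27 mitosis genes with a promoter in the table, 21 held CCAAT (77.8%, against 38.2% of 14452 genes tested) and 20 held TTTGAA (74.1%, against 13.3%). Of 24 genes of DNA replication, 15 held CCAAT (62.5%), 4 TTTGAA (16.7%) and 10 an E2F word (41.7%, against 2.52% of genes tested). These are matches of letters and describe the lists, not binding.

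Of 30 measured genes of DNA replication, 5 were called lower (16.7%, against 2.74% of all genes) and 0 higher, with a median of -0.46. Gins1, a subunit of the replicative helicase, had 8.50 and 8.03 in HSC, against 9.91 and 9.84 in KSL (-1.61 ± 0.17, adjusted p = 0.0183). Gins2, of the same complex, fell by 1.22, Tipin, a replication fork protector, by 0.95, and Tk1, thymidine kinase, by 0.73 on the log2 scale. Rrm2, a subunit of ribonucleotide reductase, fell by 1.63. None of the Mcm2 to Mcm7 genes of the helicase ring passed, with differences from -0.87 (Mcm4) to 0.00 (Mcm6). Of 19 genes of quiescence and CDK inhibition, 1 was called higher (5.26%, against 3.13% of all genes) and 0 lower. This was Txnip, the thioredoxin inhibitor, with 11.3 and 11.4 in HSC, against 9.52 and 9.53 in KSL (1.86 ± 0.15, adjusted p = 0.012). Cdkn1c, the CDK inhibitor p57, had 5.51 and 5.24 in HSC, against 4.13 and 4.42 in KSL, without passing (1.10 ± 0.33, adjusted p = 0.144).

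Of 19 genes of glycolysis and the hypoxia response, 2 were called higher (10.5%, against 3.13% of all genes) and 3 lower (15.8%, against 2.74%), with a median of -0.32. Slc2a3, the glucose transporter GLUT3, rose by 1.72 ± 0.19 and Hk1, hexokinase 1, by 0.74 ± 0.10. Bnip3, a mitophagy receptor, had 6.79 and 6.76 in HSC, against 8.15 and 7.98 in KSL (-1.29 ± 0.10, adjusted p = 0.0113). Egln3, an oxygen-sensing prolyl hydroxylase, fell by 2.79 and Pgam1, phosphoglycerate mutase, by 1.59 on the log2 scale. Of 28 genes of oxidative phosphorylation, 2 were called lower (7.14%, against 2.74% of all genes). These were Atp5b, a subunit of ATP synthase (-0.75 ± 0.12), and Ndufb3, a subunit of complex I (-0.42 ± 0.06). Of 22 cytosolic ribosomal protein genes 0 were called (against 3.13% higher and 2.74% lower among all genes), with differences from -0.28 to 0.23.

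Among genes of protein folding more fell than rose. Of 17 heat shock and unfolded protein response genes, 4 were called lower (23.5%, against 2.74% of all genes) and 1 higher (5.88%, against 3.13%). The median was -0.63. Sdf2l1 fell by 1.45, Pdia4 by 1.73, Pdia6 by 1.20 and Creld2 by 1.20 on the log2 scale. All 4 encode folding factors of the endoplasmic reticulum. Dnajb9, a co-chaperone of the same compartment, rose by 0.35 ± 0.04. Of 22 genes of ribosome biogenesis and Myc, 1 was called higher (4.55%, against 3.13% of all genes) and 2 lower (9.09%, against 2.74%). Mycn was the higher gene, and Nolc1 (a nucleolar chaperone, -0.92 ± 0.15) and Srm (spermidine synthase, -0.71 ± 0.09) were the lower. The other probe sets of Nolc1 differed by only -0.319 and -0.035. Of 17 p53 targets and survival genes 0 were called, against 3.13% higher and 2.74% lower among all genes. The 2 with the smallest p (limma) were Pmaip1, which encodes NOXA (-3.49 ± 0.70, adjusted p = 0.0662), and Sesn1 (sestrin 1, 0.76 ± 0.16, adjusted p = 0.0689).

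Immediate-early genes are those that cells switch on within minutes of stimulation or handling. Of 23 measured members, 8 were called higher in HSC of leukemic mice (34.8%, against 3.13% of all genes) and 0 lower. The median was 0.79, and 2 had a negative difference, Atf3 (-0.75) among them. Nr4a1, a nuclear receptor related to Nr4a2, had 10.5 and 10.6 in HSC, against 7.10 and 7.29 in KSL (3.32 ± 0.33, adjusted p = 0.017). Egr1, a zinc finger factor, had 12.2 and 11.98 in HSC, against 10.1 and 9.46 in KSL (2.33 ± 0.28, adjusted p = 0.0242). Jund rose by 1.44 ± 0.12, Fosb by 1.24 ± 0.16 and Jun by 1.09 ± 0.10, all parts of the AP-1 factor. Dusp1, a phosphatase of MAP kinases, rose by 0.70 ± 0.04, and Zfp36, which destabilises mRNAs, by 1.08 ± 0.14.

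Of 19 interferon response genes, 5 were called higher (26.3%, against 3.13% of all genes) and 0 lower (median 0.85). Oasl2, a sensor of the oligoadenylate synthetase family, had 8.79 and 8.80 in HSC, against 6.40 and 6.34 in KSL (2.43 ± 0.10, adjusted p = 0.0053). Iigp1, an immunity-related GTPase, rose by 3.09 ± 0.45, Rsad2, the antiviral enzyme viperin, by 1.98 ± 0.23, Usp18, which removes ISG15, by 1.67 ± 0.29, and Ddx58, the RNA sensor RIG-I, by 1.17 ± 0.20. The 2 other probe sets of Rsad2 differed by only 0.09 and 0.586. Other members of the list did not pass, among them Irf7 (0.46) and Mx1 (-0.04).

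In the group of IL-6 and JAK-STAT3 signalling, 4 of 25 measured members were called higher (16%, against 3.13% of all genes) and 0 lower (median 0.51). Jak3, a kinase of cytokine receptors, had 10.01 and 9.41 in HSC, against 7.94 and 7.62 in KSL (1.93 ± 0.24, adjusted p = 0.0257). Pim2, a survival kinase, rose by 1.70 ± 0.17, Lifr, the leukaemia inhibitory factor receptor, by 0.69 ± 0.11 and Socs3, a feedback inhibitor, by 1.35 ± 0.16. 1 of the 2 other probe sets of Socs3 differed by -0.15. The receptor genes Il6ra (-1.11) and Il6st (-0.14) did not pass, nor did Stat3 (0.85 ± 0.19, adjusted p = 0.0812).

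Of 25 receptors of cytokines and growth factors, 4 were called higher (16%, against 3.13% of all genes) and 1 lower (4%, against 2.74%). Tgfbr3, Epor, Bmpr2 and Il1r1 were the higher genes and Il7r the lower. Epor is also counted with the erythroid genes and Il7r with the lymphoid genes. Il1r1, an interleukin-1 receptor, differed by 0.48 (adjusted p = 0.0495) and kept its call in 0 of 18 alternative settings, and its other probe set was at the lowest value of the table. Bmpr2, a receptor of bone morphogenetic proteins, had 9.45 and 9.35 in HSC, against 8.35 and 8.26 in KSL (1.09 ± 0.06, adjusted p = 0.00797). Of 20 genes of niche adhesion and homing, 4 were called higher (20%, against 3.13% of all genes) and 2 lower (10%, against 2.74%). Of the higher genes, Esam and Robo4 are also on the long-term HSC list and Itga2b on the megakaryocyte and platelet list. Robo4, a guidance receptor that holds stem cells in the marrow, had 8.09 and 8.26 in HSC, against 5.63 and 5.90 in KSL (2.41 ± 0.21, adjusted p = 0.013), and Itga6, an integrin that binds laminin, rose by 1.02 ± 0.16. Itgal, the alpha chain of the leukocyte integrin LFA-1, fell by 1.81 and Alcam, an activated leukocyte adhesion molecule, by 0.65 on the log2 scale. Cxcr4, the receptor of Cxcl12, differed by -0.67 and did not pass.

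Of 8 genes of MHC class II presentation, 3 were called higher (37.5%, against 3.13% of all genes) and 0 lower, with a median of 1.01. Cd74, the invariant chain that guards the peptide groove, had 9.87 and 9.78 in HSC, against 7.62 and 7.77 in KSL (2.13 ± 0.27, adjusted p = 0.0264). H2-Aa, a class II alpha chain, had 9.34 and 9.18 in HSC, against 6.70 and 7.10 in KSL (2.36 ± 0.25, adjusted p = 0.0186). H2-Oa, a regulator of peptide loading, rose by 1.56 ± 0.09 (adjusted p = 0.00828). The other members had differences from -0.23 (H2-DMa) to 1.21 (H2-Eb1) and did not pass.

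The difference between HSC and KSL in leukemic mice was then set beside that in normal mice, which comes from other arrays. In normal mice 146 genes were higher (0.803%) and 182 lower (1%) in HSC, and the counts at an unadjusted p under 0.05 were 1612 and 1339. With only the 4 arrays of normal mice fitted, 0 genes were called in either direction. Both comparisons use the same estimate of spread for a gene, so genes called in both are not found independently. Across the 18193 genes, which are not independent replicates, the difference in leukemic mice and that in normal mice correlated with r = 0.638. Of the 1067 genes called in leukemic mice, 970 (90.9%) had the same sign in normal mice and 230 were called there in the same direction, which is 21.6% of the leukemic and 70.1% of the 328 normal calls. The 569 higher genes had a median of 1.27 in leukemic mice, which chose them, and 0.63 in normal mice. For the 498 lower genes these medians were -1.27 and -0.67. Fosl2, Il1r1 and R3hcc1 were called in opposite directions in leukemic and normal mice, but the call of Il1r1 in leukemic mice was lost in all 18 alternative settings. The larger number of calls in leukemic mice is no test that the differences were larger there.

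**Figure D4:**
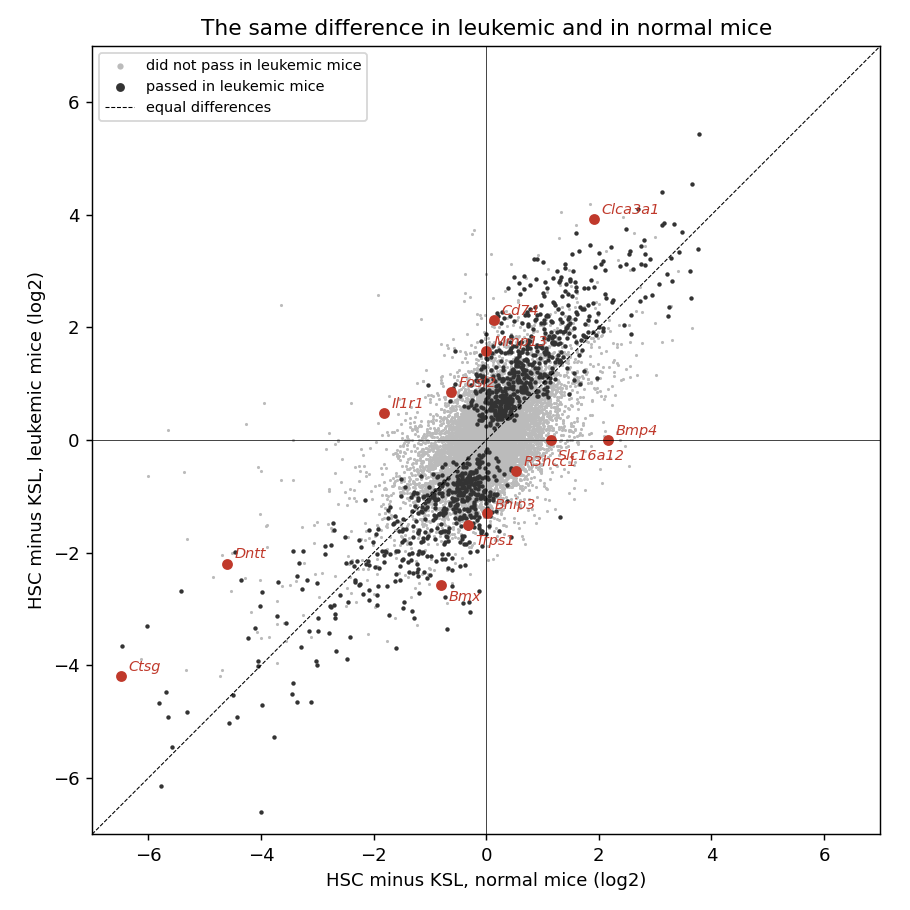
Each point is 1 gene, with its HSC minus KSL difference (log2) in leukemic mice on the y axis and in normal mice on the x axis. Dark points are the 1067 genes called in leukemic mice, the dashed line marks equal differences and red points are genes named in the text, such as Il1r1, above 0 in leukemic and below 0 in normal mice.

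The test of the difference itself, leukemic minus normal, passed for 0 genes in the upward (0%) and 1 gene in the downward direction (0.0055%), while 875 and 778 had an unadjusted p under 0.05 (limma). The 1 gene was Slc16a12, a creatine and monocarboxylate transporter. It was at the lowest value of the table on both HSC and both KSL arrays of leukemic mice and on both KSL arrays of normal mice, and at 4.48 and 4.47 in HSC of normal mice (leukemic minus normal -1.15, limma, adjusted p = 0.024). Arrays tied at the lowest value hold no spread between replicates, so the small p-value of this call rests partly on the floor. This call was lost when any 1 KSL array was left out. Counts without 1 array ran up to 50 upward, without HSC leukemic replicate 2, and up to 29 downward, without HSC normal replicate 1.

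Other genes came close. Il1r1, the receptor of interleukin-1, had 8.29 and 8.34 in HSC, against 7.92 and 7.74 in KSL of leukemic mice, while in normal mice it had 6.30 and 6.42 in HSC, against 8.13 and 8.22 in KSL. The gene was thus higher in HSC of leukemic and lower in HSC of normal mice (leukemic minus normal 2.29, adjusted p = 0.0578). Fosl2, an AP-1 factor, differed by 0.85 ± 0.06 in leukemic and by -0.62 in normal mice (1.47, adjusted p = 0.0894). R3hcc1 differed by -0.56 in leukemic and by 0.54 in normal mice (-1.09, adjusted p = 0.0578). Bmp4, a bone morphogenetic protein, was at the lowest value on all 4 arrays of leukemic mice, and in normal mice at 5.63 and 5.41 in HSC, against 3.32 and 3.38 in KSL (-2.17, adjusted p = 0.0578). Mmp13, a collagenase, had 5.04 and 4.76 in HSC of leukemic mice and at the lowest value on the other 6 arrays, at least 2.99-fold higher in HSC than in KSL of leukemic mice. Bmx, a tyrosine kinase gene, differed by -2.57 in leukemic and by -0.79 in normal mice, and Trps1, a GATA-type repressor gene, by -1.52 and by -0.32. Lor, which encodes loricrin, differed by 0.72 in leukemic and by 0.09 in normal mice, and Il12a by 0.61 and by -0.40. The other probe sets of Lor differed by only 0.055 and 0.156 in leukemic mice. Mmp13, Bmx, Trps1, Lor and Il12a had adjusted p-values of 0.145 to 0.166 for the difference.

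The lists can be set side by side in the same way, as values without a test of the list. Granulocyte-monocyte progenitor genes had a median difference of -2.002 in leukemic and -2.62 in normal mice. Ctsg differed by -4.19 in leukemic and -6.49 in normal mice (leukemic minus normal 2.30, unadjusted p = 0.00168, adjusted p = 0.245), with HSC at 8.74 and 9.28 in leukemic mice, against 6.50 and 6.04 in normal mice. Multipotent and lymphoid genes had medians of -0.03 in leukemic and -1.06 in normal mice. Dntt differed by -2.19 in leukemic and -4.60 in normal mice, with KSL at 8.13 and 8.35 in leukemic mice, against 11.1 and 9.98 in normal mice. Mast cell, basophil and eosinophil genes had similar medians, -3.77 in leukemic and -3.88 in normal mice, but Cma1 differed by -2.88 in leukemic and -0.31 in normal mice (leukemic minus normal -2.57, adjusted p = 0.196).

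Immediate-early genes had medians of 0.79 in leukemic and 0.30 in normal mice. For 12 of the 23 (52.2%) the difference between leukemic and normal mice had an unadjusted p under 0.05, all 12 positive, against 9.09% of all genes, and 0 passed after adjustment. The list's mean level in KSL was 8.36 and 8.32 in leukemic mice, against 9.07 and 8.87 in normal mice, while in HSC it was 9.26 and 9.37 in leukemic mice, against 9.43 and 9.20 in normal mice. The HSC values overlapped between leukemic and normal mice and the KSL values did not. Megakaryocyte and platelet genes had medians of 2.69 in leukemic and 1.29 in normal mice. MHC class II genes had 1.01 and 0.20, and Cd74 differed by 2.13 in leukemic and 0.14 in normal mice, with KSL at 7.62 and 7.77 in leukemic mice, against 8.99 and 9.64 in normal mice (leukemic minus normal 1.99, adjusted p = 0.311). Bnip3 differed by -1.29 in leukemic and by 0.02 in normal mice (leukemic minus normal -1.31, adjusted p = 0.166). None of these differences passed after adjustment over all genes.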

How the data were processed

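Per the submitters' processing notes the authors used RMA, with no version given. The authors deposited 1 table of log2 values for 45101 probe sets on 8 arrays, with a lowest value of 10.0 on the linear scale (3.32 in log2) shared by 14.9% to 15.8% of probe sets per array; how that floor arose is not given in the sources used here. Such values cannot be ranked, and a fold against a group wholly at the floor is a lower bound. The design text names a Nugen amplification and the labels a standard Affymetrix labelling, which is not settled here. Groups follow the disease state and cell type labels; free-text descriptions that speak of embryos were not used.

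Probe sets with 1 symbol in the platform annotation (34945) were reduced to 18193 genes by the highest mean over the 8 arrays; 932 had several symbols and 9160 none. Differences were estimated by limma 3.58.1 under R 4.3.3 (1 mean per group, 4 residual degrees of freedom, two-sided, Benjamini-Hochberg over all genes, threshold 0.05) and checked on simulated data. Errors are standard errors of the fit, n = 2 arrays per group; precision is limited by the number of arrays. Figures used matplotlib 3.10.9.

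Named genes are up to 15 in each direction with the largest difference among called genes whose arrays do not overlap, leaving out unnamed genes, smell and taste receptor families, small RNAs and antigen receptor segments, up to 4 called members per list (else the 2 with the smallest p), the sort gate, and 5 genes per direction for the difference between leukemic and normal mice; other list members were named after their values were seen. The comparison and the 29 lists (613 entries, 556 measured) were chosen with earlier results of these data known. Replicate numbers were not used as pairs, since the labels do not say what they mark (correlation of deviations -0.0076 in leukemic and 0.087 in normal mice). Alternatives varied the arrays, scaling, filters, probe sets and variance model.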

Additional observations from a re-analysis of the deposited data

Results flagged for a closer look

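Slc16a12, a monocarboxylate and creatine transporter, was the 1 gene whose HSC minus KSL difference itself passed a test between leukemic and normal mice (leukemic minus normal -1.15, limma, adjusted p = 0.024). Both HSC and both KSL arrays of leukemic mice were at the lowest value of the table, so the leukemic difference is 0.00 and has no order, against a difference of 1.15 in normal mice. Arrays tied at that value hold no spread between replicates, so the small p-value rests partly on the floor. No outlying array could be looked for, since groups of 2 arrays are too small for that.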

How the results depend on the processing

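Counts are given as higher and lower in HSC. In leukemic mice (569 and 498) they were 48 and 46 with only the 4 leukemic arrays fitted, of which 38 and 34 were among the main calls. They were 338 and 302 with array weights, and 366 and 322 when a log2 difference of at least 1 was also required. In normal mice (146 and 182) they were 0 and 0 with only the 4 normal arrays, 1 and 3 without both arrays of normal replicate 1, 89 higher with array weights, 305 lower with a common array median, 263 and 302 without genes at the floor on a leukemic array, and 241 higher without the lowest 40% of genes. With the replicate number as a block the counts were 0 and 0 in leukemic mice, 0 and 0 in normal mice and 0 and 0 for the difference. The labels do not say what a replicate number marks, and replicate 1 of both normal groups shared low Xist. Without both of those arrays each normal group keeps 1 array. The spread for the leukemic comparison then comes from the 4 leukemic arrays alone, so that fit is no separate check on it. For the difference between leukemic and normal mice (0 and 1) they were 0 lower with a common array median and without both arrays of normal replicate 1, 1 and 2 after a further quantile normalization, 2 and 0 without genes at the floor and without the lowest 40% of genes, 3 and 4 with the mean of all probe sets, 1 and 4 with a trend and robust prior, and 2 lower with every probe set tested by itself. Leaving out 1 array gave 0 to 761 higher and 0 to 555 lower in leukemic mice, 5 to 248 and 15 to 249 in normal mice, and 0 to 50 and 0 to 29 for the difference. No count or called named gene reversed its direction, but list medians near 0 changed sign across the alternatives for cytokine receptors (-0.52 to 0.24), mature neutrophils and monocytes (-0.25 to 0.82), multipotent progenitors (-0.18 to 0.085), niche adhesion (-0.038 to 0.24), macrophages (-0.33 to 0.007), p53 targets (-0.13 to 0.27) and the sort gate (-0.68 to 0.21). Of 106 called named genes, 90 lost their call with only the 4 leukemic arrays, 106 without KSL leukemic replicate 1, 103 without KSL leukemic replicate 2, 45 with any 1 KSL array of normal mice left out and 21 with array weights; beyond the fewer arrays, the cause was not tested.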
